A study of Mus musculus with 32 samples.

Results

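RNA-seq read counts were compared between mature eggs of 2 inbred mouse strains, D2 and B6. The libraries were chosen by their labelled strain and stage: 5 libraries of D2 and 6 of B6 eggs at metaphase II (MII), 11 of the 32 libraries of the study. The study also held germinal vesicle (GV) oocytes of both strains and GV and MII oocytes of their B6xD2 F1 hybrid. Females came from a commercial breeder and were 8 to 12 weeks old, and none carried a labelled allele or received a labelled drug, apart from IBMX in the collection medium of GV oocytes. Each library was 1 pool of 9 to 20 eggs of a single mother, stripped of the zona pellucida, so the unit of replication was the mother. Batch 1 held 3 B6 and 3 D2 MII libraries, and batch 2, sequenced on another HiSeq model, held 3 B6 and 2 D2 MII libraries. Titles of batch 2 carry 1 of 2 prefixes that read as dates, and D2 replicate 1 has one of them while the other 4 D2 and B6 MII libraries have the other. The 5 F1 MII libraries (3 in batch 1, 2 in batch 2), the 5 B6 GV and the 5 D2 GV libraries served as further measurements.

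An egg at metaphase II is arrested by cytostatic factor with its second meiotic spindle assembled, and it transcribes almost nothing. Its messenger RNA was made by the growing oocyte and was stored, and some of it was degraded during maturation. The store directs fertilization, egg activation and the first cleavage. B6 is the source of the mouse reference genome and D2 is a strain with many sequence differences from it.

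The 11 libraries held 27.3 to 35.9 M counts in genes, with 18530 to 21356 genes having at least 1 read. All 8 oocyte markers checked were present in each library. Gdf9, a growth factor secreted by the oocyte, ran from 2331 to 3598 CPM (counts-per-million, on library sizes scaled by TMM). The first principal component of the 11 libraries, with 37.42% of the variance, placed B6 from 60.24 to 75.07 and D2 from -93.56 to -73.97, and the second, with 17.84%, separated the batches. RNA per egg was not measured, so each level is a share of its library.

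Start-site windows of 3 genes are shown since the first results turn on these genes: Pnpla3, high in D2, Arid5b, high in B6, and Vmn1r157, 1 of a block of receptor genes read in B6 and nearly absent from D2 libraries. Each window runs from 250 bases before to 50 bases after the RefSeq start on GRCm38.p6, 5′ to 3′ on the gene's strand: chr15:84167566-84167865 (plus) for Pnpla3, chr10:68278677-68278976 (minus) for Arid5b and chr7:22761447-22761746 (plus) for Vmn1r157. Capitals mark matches to the CCAAT box (CCAAT) or the TATA box (TATAAA) on either strand.
Pnpla3: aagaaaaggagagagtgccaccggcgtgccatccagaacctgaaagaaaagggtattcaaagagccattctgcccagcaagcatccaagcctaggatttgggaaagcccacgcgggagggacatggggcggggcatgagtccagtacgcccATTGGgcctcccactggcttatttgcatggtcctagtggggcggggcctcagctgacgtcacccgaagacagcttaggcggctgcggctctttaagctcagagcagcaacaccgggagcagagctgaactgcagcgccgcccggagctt
Arid5b: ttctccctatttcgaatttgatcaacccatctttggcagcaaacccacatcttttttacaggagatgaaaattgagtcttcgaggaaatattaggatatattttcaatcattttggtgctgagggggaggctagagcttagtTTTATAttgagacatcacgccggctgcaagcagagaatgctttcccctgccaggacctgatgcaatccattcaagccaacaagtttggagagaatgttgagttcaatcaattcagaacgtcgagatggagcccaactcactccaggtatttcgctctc
Vmn1r157: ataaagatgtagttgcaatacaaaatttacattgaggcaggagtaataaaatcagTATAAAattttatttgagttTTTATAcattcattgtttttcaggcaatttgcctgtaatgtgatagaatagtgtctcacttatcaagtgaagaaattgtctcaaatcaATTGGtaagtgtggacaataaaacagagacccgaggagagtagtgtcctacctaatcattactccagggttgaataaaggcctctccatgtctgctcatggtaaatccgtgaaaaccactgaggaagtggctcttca
Pnpla3 had 1 CCAAT match, Arid5b 1 TATA match, and Vmn1r157 2 TATA matches and 1 CCAAT match, none overlapping another. TAATTG, the element bound by the oocyte homeobox factor NOBOX, had no match in these 3 windows. Of 27025 genes with such a window, 14.2% held TATAAA, 37.9% CCAAT and 8.15% TAATTG. The window of Vmn1r157 was identical letter for letter to those of Vmn1r112 and Vmn1r139, so 3 of the 41 Vmn1r genes with a window in the long blocks described below had the same letters there. These are letters of the reference, and the D2 sequence of the windows was not analysed here.

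The comparison asked which transcripts differed between D2 and B6 eggs. Of 19003 genes tested with batch as a term, 5019 (26.4%) were called, at an adjusted p under 0.05 (quasi-likelihood F test of edgeR, adjusted by Benjamini-Hochberg). They split nearly evenly, with 2552 higher in D2 (13.4%) and 2467 lower (13.0%). At least 2-fold differences were called for 2798 genes (14.7%), 1306 higher and 1492 lower in D2, and at least 10-fold differences for 342 higher and 502 lower. Groups did not overlap, with every D2 library above or below every B6 library, for 2413 genes (12.7%), of which 2320 were called. Of the 4920 called genes with a value in each batch alone, 4900 had the same sign in both. The calls were made from both batches together, so this agreement is no independent check of them. The median log2 difference over all tested genes was -0.03. On simulated data the test missed most of the smallest true changes and some of the large ones, so a gene that was not called is not shown to be equal in the strains.

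**Figure D1:**
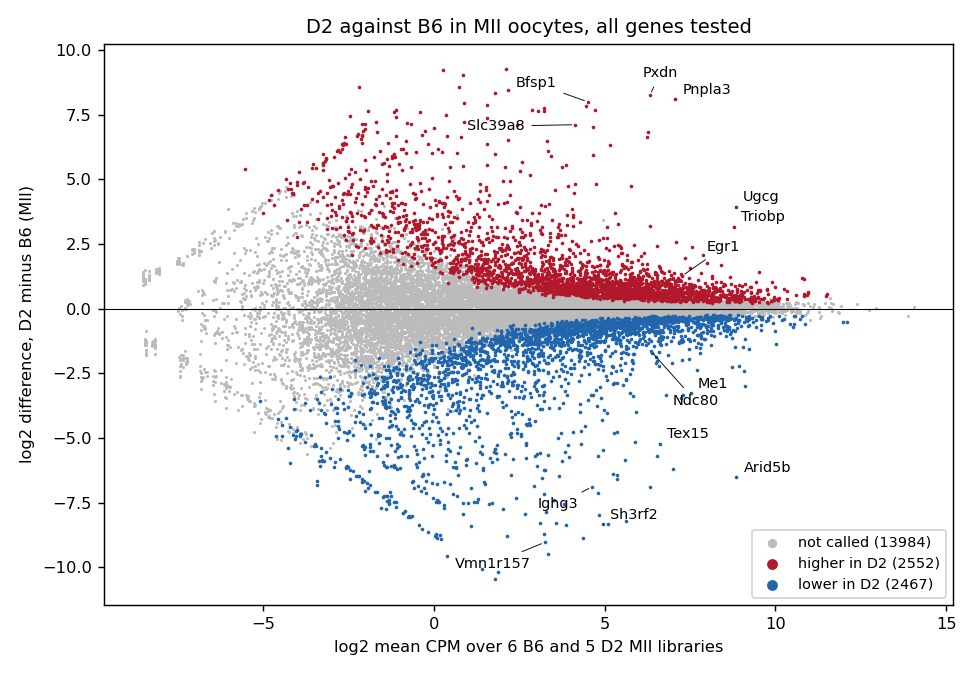
Log2 difference D2 minus B6 in MII eggs (vertical) against the log2 mean CPM over the 11 libraries (horizontal), 1 point per gene tested, red where called higher in D2 (2552), blue where called lower (2467), grey where not called. Pnpla3, Pxdn, Ugcg and Triobp stand apart at high levels above 0, and Arid5b, Tex15, Sh3rf2 and Me1 below it.

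Called differences were smaller among abundant transcripts, where smaller differences can pass the test, than among rare ones. At a mean of 100 CPM or more, 36.4% of 2316 genes were called, 502 higher and 340 lower in D2, and 106 of these calls were at least 2-fold. Between 1 and 10 CPM 26.6% were called, and 88.1% of those were at least 2-fold. At 10 CPM or more, 20.3% of genes were higher in D2 and 16.5% lower, which is the split to set beside the gene groups of well expressed genes below. By chromosome, the called share ran from 21.9% on X to 34.0% on 14. Chromosome 7 had 243 lower and 157 higher genes, and 68.2% of its calls were at least 2-fold. The lower ones include 46 Vmn1r genes, described below.

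Among transcripts near absent in B6, the lipid droplet enzyme gene Pnpla3, which encodes a patatin-like phospholipase, was at 267, 283 and 300 CPM in the 3 D2 libraries of batch 1 and at 351 and 259 CPM in the 2 of batch 2. In the 6 B6 libraries it ran from 0.725 to 1.60 CPM with a median of 1.09. All D2 libraries thus lay far above all B6 libraries, and the difference was 8.09 ± 0.21 on the log2 scale (SE, adjusted p = 2.14e-26). F1 eggs held 127 ± 9.43 CPM (SD, n = 5). Pxdn, encoding the peroxidase that crosslinks collagen IV, was at 156, 168 and 153 CPM in D2 batch 1 and at 202 and 198 CPM in D2 batch 2, against 0.148 to 0.958 CPM in B6 (median 0.521). The groups did not overlap, and the difference was 8.25 ± 0.36 (SE, adjusted p = 2.95e-18), with F1 eggs at 64.6 ± 5.96 CPM (SD, n = 5).

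The other genes with the largest higher levels in D2 had varied roles. Bfsp1, a lens beaded-filament gene, was at 34.8 to 64.9 CPM in D2 and 0.0631 to 0.357 CPM in B6. Gsto2, an omega-class glutathione transferase, was at 7.52 to 23.6 CPM in D2 and at most 0.180 CPM in B6. The remaining genes with the largest differences were Arhgef15 (7.76 ± 0.45), the transcription factor genes Pknox2 (7.66 ± 0.38) and Klf12 (7.66 ± 0.81), Stc1 (the secreted glycoprotein stanniocalcin, 7.64 ± 0.77), Slc39a8 (7.11 ± 0.45) and Fam124a (7.09 ± 0.40). Every D2 library lay above every B6 library for each of these. For Arhgef15, Klf12, Stc1, Gsto2 and Fam124a the 6 B6 libraries held 12 to 17 counts in all, so the size of those differences depends on how low counts are handled.

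Slc39a8 encodes ZIP8, an importer of zinc and manganese, and eggs take up and later release zinc. It was at 42.9, 38.6 and 32.3 CPM in D2 batch 1 and at 45.5 and 33.4 CPM in D2 batch 2, against 0.0648 to 0.693 CPM in B6 (median 0.199). F1 eggs ran from 18.1 to 55.8 CPM (median 44.0), across the D2 range.

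Abundant transcripts higher in D2 included Ugcg, which encodes the enzyme that makes glucosylceramide. It was at 811, 811 and 1056 CPM in D2 batch 1 and at 1119 and 870 CPM in D2 batch 2, against 48.3 to 73.7 CPM in B6 (median 62.5). The groups were far apart, by 3.95 ± 0.15 on the log2 scale (SE, adjusted p = 4.37e-21), and F1 eggs lay between them at 516 ± 65.3 CPM (SD, n = 5). Triobp, an actin-bundling protein gene, was at 651 to 1253 CPM in D2 and 53.3 to 155 CPM in B6 (3.16 ± 0.13). Mtfr2, a regulator of mitochondrial fission, differed by 2.59 ± 0.12 and the laminin chain gene Lamc1 by 2.09 ± 0.12, both without overlap.

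Among abundant transcripts lower in D2, Arid5b differed most. It encodes a DNA-binding cofactor of a histone demethylase. Its level was 630 to 1061 CPM in B6 (median 818), and in D2 it was 9.79, 6.72 and 5.86 CPM in batch 1 and 9.08 and 13.5 CPM in batch 2. D2 eggs held the transcript at a low but measurable level, with a difference of -6.50 ± 0.15 on the log2 scale (SE, adjusted p = 2.62e-27). F1 eggs held 435 ± 85.7 CPM (SD, n = 5). Me1, the cytosolic malic enzyme that supplies NADPH, was at 272 to 377 CPM in B6 and 26.7 to 36.0 CPM in D2, with F1 eggs at 182 ± 32.6 CPM (SD, n = 5). Of the 50-base words in Me1 transcripts, 28.3% also occur in other genes, so its split of reads is less certain than that of Arid5b, with 0.00994%. Stk36, a kinase of motile cilia, was at 237 to 333 CPM in B6 and 18.2 to 32.0 CPM in D2, Pramel27 of the oocyte PRAME family at 188 to 333 and 18.3 to 35.7 CPM, and Rnf169, a ubiquitin reader at DNA breaks, at 134 to 255 and 9.01 to 32.8 CPM.

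Transcripts near absent in D2 were led by Vmn1r genes, described below, and by Sh3rf2, Defb8, Rhbdf1, Adam7, Myo7a and Ighg3. Sh3rf2, an E3 ubiquitin ligase gene, was at 45.8 to 72.0 CPM in B6 (median 56.6), while the 5 D2 libraries held 24 counts in all, 0.0302 to 0.435 CPM. Rhbdf1, which encodes an inactive rhomboid, was at 6.59 to 26.8 CPM in B6 and at most 0.0950 CPM in D2. The beta-defensin gene Defb8 was at 12.2 to 36.9 CPM in B6 and at most 0.237 CPM in D2, and Ighg3, an immunoglobulin gamma constant region, at 34.4 to 51.4 and at most 0.697 CPM. No D2 library reached a B6 library for these genes. Reads were aligned to GRCm38.p4, per the submitters' processing notes, which comes from B6. A lower D2 count can come from reads that no longer align or from less transcript, and these cannot be told apart from counts.

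**Figure D2:**
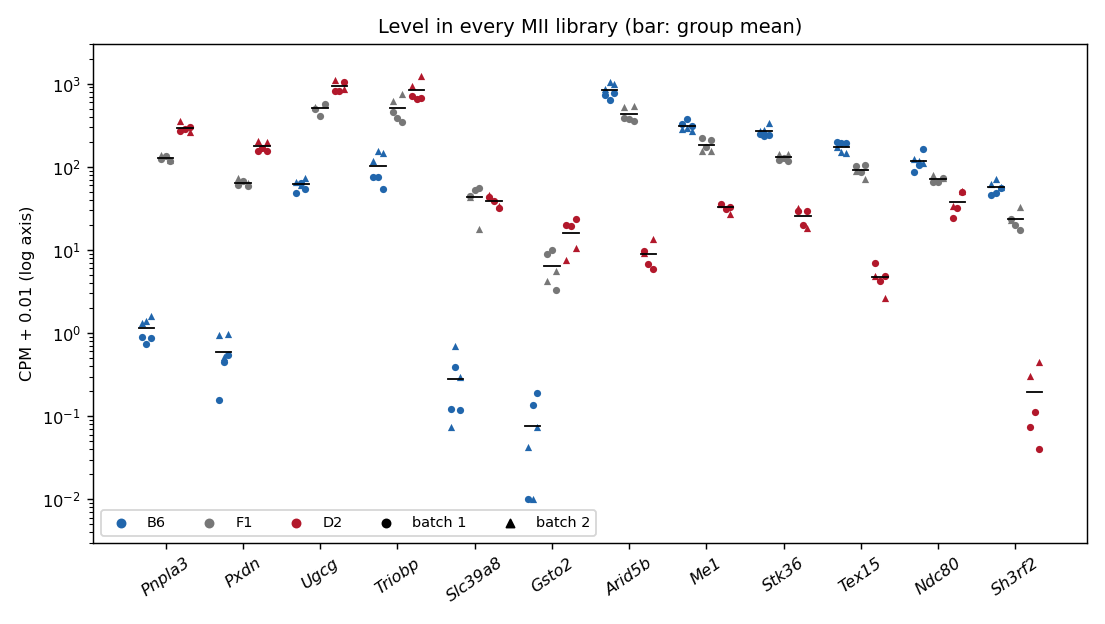
Level of 12 genes in every MII library, as CPM + 0.01 on a log axis, with 6 B6, 5 F1 and 5 D2 libraries per gene, circles for batch 1, triangles for batch 2 and bars for group means. B6 and D2 do not overlap for any of the 12 genes, and the F1 mean lies between the parental means except for Slc39a8, where it is near that of D2.

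Genes read in all libraries of 1 strain and almost none of the other were counted with fixed bounds. At 5 CPM or more in every D2 library and under 0.5 CPM in every B6 library there were 12 genes, and with the strains exchanged 22. F1 eggs held a median of 51.0% of the D2 level for the first set (4.16% for Stc1 to 91.4% for the lncRNA gene Gm34699). For the second set the median was 36.5% of the B6 level (23.5% to 65.3%). Many genes of the second set belong to the Vmn1r blocks described below, whose copies are near identical and may not be separate measurements. Their F1 levels, from 23.5% (Gm6176) to 34.2% (Vmn1r139), all lay below that median. Levels of 25% to 75% of the expressing parent were found for 8 of the 12 and 20 of the 22. The same bounds were met by the GV means of 8 and 20 of them. For Stc1, D2 eggs were at 7.73, 12.2 and 16.4 CPM in batch 1 and at 15.8 and 49.5 CPM in batch 2, and F1 eggs at 0.216 to 2.03 CPM, near the B6 range of 0 to 0.223 CPM. Klf12 was likewise low in F1 eggs, at 1.21 to 4.12 CPM against 15.3 to 24.3 CPM in D2.

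The intermediate F1 level held beyond these genes. Of 3358 called genes with a mean of at least 5 CPM, the F1 mean lay between the parental means for 3133 (93.3%). The median position of F1, counted from 0 at B6 to 100 at D2, was 48.7. For the 1174 called genes with at least 2-fold differences, 1142 (97.3%) lay between the parents. Since the parents were called apart first, these shares describe the F1 level and were not tested.

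**Figure D3:**
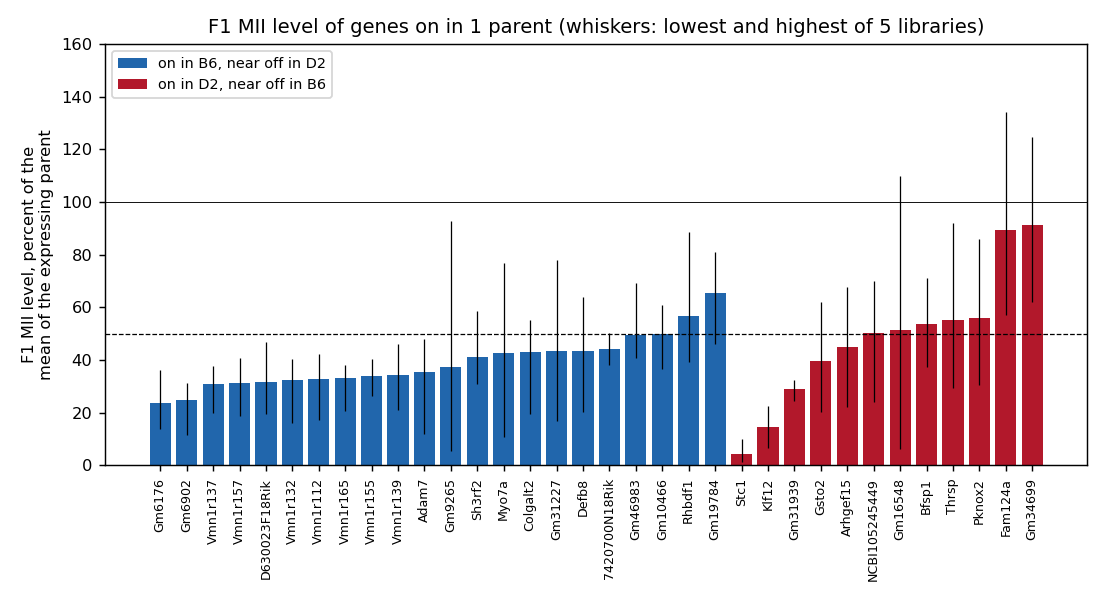
F1 MII level as a percent of the mean of the expressing parent, for 22 genes on in B6 (blue) and 12 on in D2 (red). Bars are means of 5 F1 libraries, whiskers their lowest and highest, and the dashed line marks the midpoint. Most bars lie between 25% and 75%, and Stc1 at 4.16% and Gm34699 at 91.4% are the extremes.

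Some called differences lay in runs of neighbouring genes, and how many runs would arise without clustering was not computed. Runs of 3 or more neighbouring tested genes, all called at least 2-fold in the same direction, numbered 46 with 214 genes, 35 lower and 11 higher in D2. The longest were 3 blocks of vomeronasal type 1 receptor (Vmn1r) genes on chromosome 7, of 25, 24 and 7 genes. Vmn1r genes encode pheromone receptors of sensory neurons and form arrays of near-identical copies. Of 57 Vmn1r genes tested, 46 were lower and 2 higher in D2, and all 46 lay on chromosome 7. In the 3 blocks the B6 means ran from 0.424 to 26.9 CPM with a median of 3.22, and the D2 means from 0.00 to 0.548 CPM with a median of 0.0332, and F1 eggs had a median of 1.07 CPM. The 56 genes of these blocks were also lower in D2 at the GV stage. Vmn1r132 was at 13.7 to 28.1 CPM in B6, with 3259 counts over 6 libraries against 3 counts over 5 D2 libraries, and Vmn1r157 at 13.7 to 26.4 CPM, with 3019 counts against 4. Of 46 genes of these blocks with a transcript to check, 44 shared 50% or more of their 50-base words with other genes. Counts of single copies are thus uncertain, and the block is better read as a whole. Vmn1r112 and Vmn1r157 had the same level, 13.6826 CPM, in B6 replicate 1 of batch 2. The numbers of genes given for these blocks are therefore numbers of annotated copies, which may not be separate measurements.

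Other runs held genes of known roles. On chromosome 7 a run of 9 genes with the paired immunoglobulin-like receptors Pirb and Pira2 was lower in D2. B6 means of this run were 0.743 to 3.92 CPM, and D2 means were at most 0.0148 CPM. The 8 genes of this run with a transcript to check shared 31.3% (Lilra6) to 93.0% (Pira2) of their words with other genes. Counts of single genes of this run are thus uncertain, and its 9 genes may not be separate measurements. On chromosome 12, 4 immunoglobulin gamma constant genes were lower. Ighg2b was at 75.03 CPM in B6 and 0.853 CPM in D2, and Ighg1 at 53.6 and 15.1 CPM, with F1 eggs at 34.3 and 34.7 CPM. Higher in D2 were 5 flavin monooxygenase genes on chromosome 1, which oxidise amines and sulfides. Fmo6 was at 1.26 CPM in B6 and 37.0 CPM in D2, and Fmo4 at 6.83 and 45.3 CPM. A run on chromosome 19 held Gsto1, Gsto2, Itprip and Cfap58, and Cfap58 was at 1.17 CPM in B6 and 21.6 CPM in D2. Genes of these runs outside the 5 longest were picked as examples after their values were seen.

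Gene groups of the egg are described by their counts, beside 13.4% higher and 13.0% lower among all genes. Among genes at 10 CPM or more the shares were 20.3% and 16.5%. The lists and their members were chosen with earlier results of these data known. Their counts therefore describe the lists and were not tested against these shares. In the translational control group, 15 of 42 tested genes were higher in D2 and 4 lower (median log2 difference 0.23). Ddx6, a helicase that holds stored mRNA silent, was at 78.7 to 109 CPM in D2 and 25.04 to 45.3 CPM in B6, higher by 1.32 ± 0.16. Patl2, an oocyte translational repressor, was higher by 1.14 ± 0.19, and the RNA-binding protein gene Fmr1 by 1.08 ± 0.14. The cap-binding inhibitor gene Eif4ebp2 was higher by 1.08. In the mRNA decay group, 15 of 41 were higher and 3 lower, although the median was 0.01. Lsm1, part of the ring that starts decapping, was at 16.3 to 29.3 CPM in D2 and 5.27 to 12.9 CPM in B6, and Dis3l, an exosome nuclease gene, was higher by 0.79 ± 0.10. Pan3, of the poly(A) nuclease, was higher by 0.59 ± 0.09, with groups that overlapped.

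In the subcortical maternal complex and Nlrp family, needed for the first cleavages, 6 of 16 genes were higher in D2 and 0 lower. Nlrp2 was at 356 to 440 CPM in D2 and 165 to 319 CPM in B6 (0.73 ± 0.11). Khdc3 was at 13.2 to 49.9 CPM and 6.83 to 21.1 CPM with overlap, and it shares 34.1% of its 50-base words with other genes. Of 36 oocyte family genes, 9 were higher and 4 lower. Fbxw28, an oocyte F-box gene, was at 1365 to 1820 CPM in D2 and 761 to 1017 CPM in B6, and the homeobox gene Obox2 at 1331 to 1686 and 1822 to 2492 CPM, without overlap in either, and these share 61.5% and 65.1% of their words with other genes.

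The zona and secreted factor group had 1 of 18 genes higher and 2 lower. Nobox, a homeobox factor of oocyte-specific genes, was higher by 0.66 ± 0.11 (596 to 801 CPM in D2, 332 to 569 CPM in B6). The receptor Kit was lower by 0.37, with overlap. Among 17 genes of sperm binding and fusion, 2 were higher and 3 lower. The tetraspanin Cd9, which the egg needs to fuse with sperm, was higher by 1.12 with overlap, and the integrin subunit Itgb1 was at 93.0 to 180 CPM in D2 and 41.7 to 67.4 CPM in B6 without it. Fetub, whose product keeps the zona from hardening early, was lower by 0.47 with overlap.

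Of 51 cohesin, kinetochore and checkpoint genes, 11 were higher in D2 and 4 lower. Ndc80, the microtubule-binding kinetochore subunit, was at 24.1, 31.6 and 49.5 CPM in batch 1 and 33.5 and 50.9 CPM in batch 2 of D2, against 85.4 to 163 CPM in B6 (median 114). The groups did not overlap, and the difference was -1.62 ± 0.16 (SE, adjusted p = 7.09e-10). F1 eggs were at 71.7 ± 6.32 CPM (SD, n = 5). Pttg1, encoding securin, was lower by 1.05 ± 0.15 with overlap. The cohesin subunit gene Stag1 was at 117 to 195 CPM in D2 and 40.2 to 85.4 CPM in B6, and the cohesin acetyltransferase gene Esco2 at 413 to 580 and 213 to 307 CPM. The centromere gene Cenpc1 was higher by 1.23 ± 0.14.

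Of 62 spindle and cortical actin genes, 9 were higher in D2 and 10 lower. The spindle motor Kif11 was at 132 to 243 CPM in D2 and 64.1 to 87.2 CPM in B6. Haus8, of the augmin complex that branches spindle microtubules, was at 0.338 to 2.73 and 5.87 to 13.7 CPM. In the metaphase arrest group 8 of 48 were higher and 4 lower. Wee1, which inhibits Cdk1, was higher by 1.01 ± 0.19, Ccnb1 (cyclin B1) by 0.40, and Anapc1, a scaffold of the anaphase-promoting complex, was lower by 0.39. Groups overlapped for Ccnb1 and Anapc1, and Anapc1 was not called within either batch alone. The medians of the metaphase arrest and spindle groups were -0.01 and 0.02.

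For egg activation, calcium and zinc, 10 of 39 genes were higher and 4 lower. Besides Slc39a8, the zinc exporter gene Slc30a4 was at 40.3 to 60.7 CPM in D2 and 68.5 to 120 CPM in B6, and the calcium channel gene Itpr2 at 62.2 to 81.0 and 116 to 167 CPM. Stim2, a sensor of stored calcium, was higher by 0.67. Of 28 small RNA pathway genes, 5 were higher and 4 lower. The germ-cell helicase gene Ddx4 was at 57.3 to 93.6 CPM in D2 and 17.3 to 26.7 CPM in B6, Mael at 83.1 to 118 and 32.7 to 43.3 CPM, and the Tudor gene Tdrd5 at 87.4 to 122 and 216 to 290 CPM. In maternal chromatin, 8 of 54 were higher and 3 lower. The deacetylase gene Sirt1 was at 145 to 220 CPM in D2 and 52.6 to 82.2 CPM in B6. Of 26 maternal factors for genome activation, 5 were higher, among them Lin28a (0.72 ± 0.12), and 3 lower, among them Nfya (-0.44 ± 0.10). Groups overlapped for Nfya, which lost its call without the batch term and within batch 2 alone.

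Among metabolic groups, lipid droplet, fatty acid and cholesterol genes had 10 of 52 higher and 9 lower in D2. After Pnpla3, the cholesterol enzyme gene Sc5d was at 9.50 to 22.0 CPM in D2 and 50.9 to 69.0 CPM in B6, Elovl5, which elongates polyunsaturated fatty acids, at 80.9 to 133 and 238 to 354 CPM, and the fatty acid binding protein gene Fabp5 at 2.24 to 3.90 and 9.89 to 21.5 CPM. Msmo1, also of the lipid and cholesterol group, was higher in D2 by 1.74 ± 0.24 with overlap. Glycolysis and citric acid cycle genes had 6 of 53 higher and 11 lower. Gpi1, glucose-6-phosphate isomerase, was at 7.52 to 12.3 CPM in D2 and 35.6 to 60.2 CPM in B6, though 15.8% of its words occur elsewhere, and the citrate synthase gene Cs was lower by 0.43 ± 0.09. Antioxidant genes had 13 of 55 higher, led by Gsto2, and 9 lower, among them Txnrd1 (12.4 to 41.8 against 62.0 to 85.3 CPM) and Gpx3 (14.9 to 42.3 against 49.3 to 104 CPM). Fewer calls than the 26.4% over all genes were made in the nuclear respiratory chain (8.3%, 3 of 72 higher and 3 lower) and in mitochondrial (14.1%) and cytosolic (20.3%) ribosomal proteins, a comparison of shares with no test. Of 79 cytosolic ribosomal protein genes 9 were higher and 7 lower. Rpl15 was higher by 2.14 ± 0.18, and 24.9% of its words are shared with other genes. Rpl37, Rps2 and Rps15a differed by -2.23, -1.91 and -1.21, with overlap, and were not called without the batch term.

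Proteasome genes had 10 of 44 higher and 1 lower, with Psmd9 and Psma2 higher by 1.30 ± 0.16 and 0.48. Groups overlapped for Psma2, which lost its call without the batch term and within batch 2 alone. DNA repair genes had 10 of 58 higher and 12 lower. Lig4, the ligase of end joining, was at 168 to 190 CPM in D2 and 65.9 to 80.4 CPM in B6, Rad51d at 12.3 to 36.5 and 53.8 to 93.4 CPM, and Brca2 at 390 to 565 and 615 to 857 CPM. Interferon and antiviral genes had 4 of 40 higher and 11 lower (median -0.36), most of them rare: 13 of the 40 reached a mean of 5 CPM. H2-K1, a class I histocompatibility gene with strain haplotypes, was at 0.254 to 1.14 CPM in D2 and 4.6 to 16.8 CPM in B6. Heat shock and immediate early genes had 7 of 30 higher and 3 lower. Egr1 was at 197 to 250 CPM in D2 and 75.8 to 113 CPM in B6 (1.25 ± 0.10), and the chaperone gene Hspa8 at 628 to 881 and 251 to 469 CPM.

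**Figure D4:**
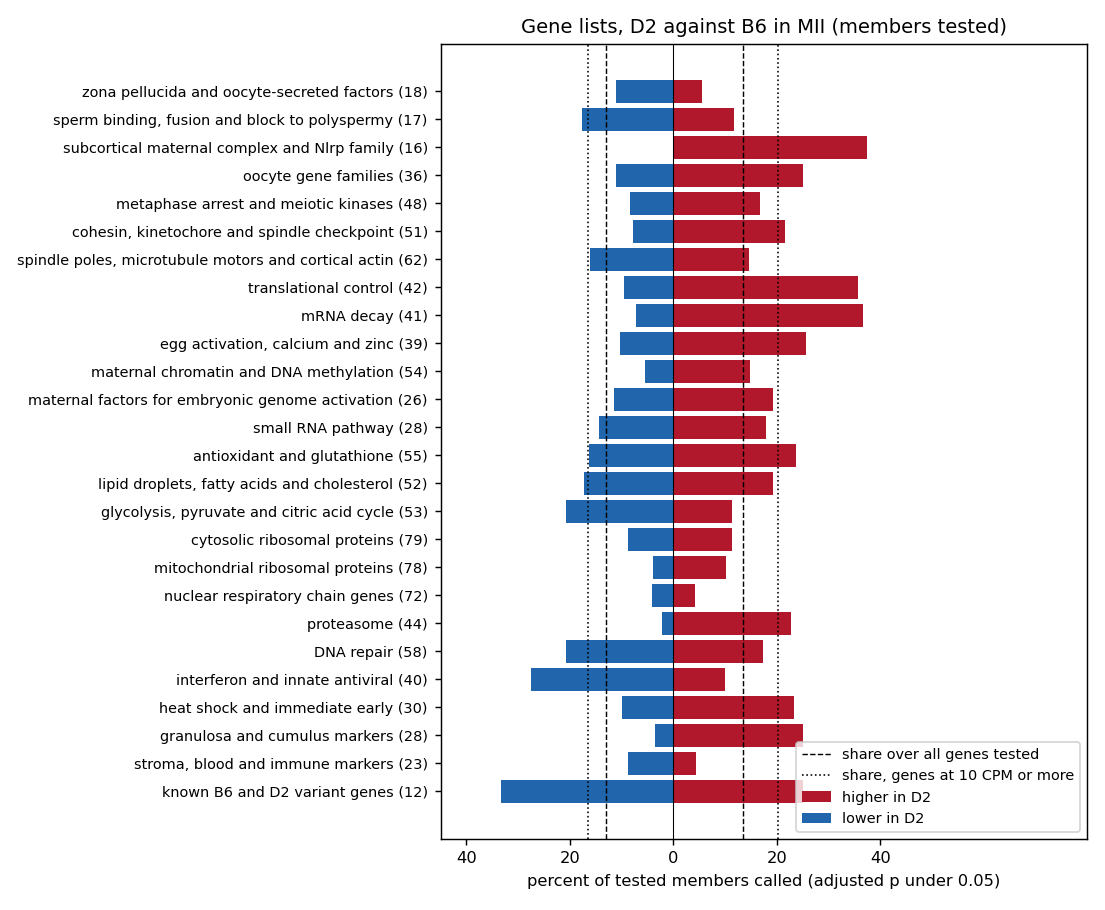
Percent of the tested members of each gene list (number tested in brackets) called higher (red, right) or lower (blue, left) in D2 MII eggs. The lists were chosen with earlier results of these data known. Dashed lines mark the shares over all genes, 13.4% and 13.0%, and dotted lines those over genes at 10 CPM or more, 20.3% and 16.5%. Translational control and mRNA decay extend furthest to the right with the subcortical maternal complex, and the nuclear respiratory chain and both ribosomal protein groups lie inside all of them.

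Markers of other cells were measured in the same libraries. Of 28 granulosa and cumulus genes tested, 7 were higher in D2 and 1 lower (median 0.93). Among all genes 13.4% were higher and 13.0% lower. Their summed level ran from 352 to 477 CPM in B6 and from 471 to 587 CPM in D2. The mean log2 level of the list was higher by 0.54 in D2, with an exact two-sided permutation p of 0.08225 (the smallest possible with 5 against 6 is 0.004329), by 0.68 in batch 1 (exact p = 0.2) and by 0.46 in batch 2 (exact p = 0.4). The defining gene Foxl2 had 0 counts in both strains, and Amh 0 counts in B6 and 20 in D2. Most of the sum came from Serpine2, Nr5a2, Esr2 and Cyp19a1, and Cyp19a1, the aromatase gene, went the other way (37.3 to 53.7 CPM in B6, 7.65 to 21.8 CPM in D2). The cumulus gene Ptgs2 was at 3.98 to 19.7 CPM in D2 and 0.670 to 3.92 CPM in B6. With the marker level as a covariate, 2639 genes were called higher and 2623 lower, and 4862 of the 5019 calls were kept in the same direction. That fit held all 32 libraries, and the marker level reached 3.98 in B6 and 4.29 in D2 GV pools. In MII libraries it reached 0.74 in B6 and 0.97 in D2. The covariate thus mainly followed the GV pools, and whether follicle-cell RNA contributed to the MII differences was not tested. In a pool, fewer attached cells and less RNA per cell cannot be told apart. Of 23 stroma, blood and immune markers tested, 1 was higher and 2 lower, with summed levels of 56.7 to 82.2 CPM in B6 and 43.0 to 55.1 CPM in D2. Most of these sums came from Pecam1, the only marker with a mean of 5 CPM or more. It was at 49.0 to 76.5 CPM in B6 and 30.4 to 41.0 CPM in D2. The mean log2 level of the list differed by -0.05 (exact two-sided permutation p = 0.6277).

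Genes at which the strains are known to carry different alleles were also read. Of 12 such genes tested, 3 were higher and 4 lower in D2. Nnt, the mitochondrial transhydrogenase gene with an exon deletion in the B6J substrain, was at 0 to 0.319 CPM in B6 and at 2.15, 2.16 and 0.514 CPM in batch 1 and 6.89 and 1.11 CPM in batch 2 of D2 (4.05 ± 0.68, adjusted p = 1.68e-05). The labels do not name the B6 substrain. Alad, which D2 carries in more copies, was higher by 2.57 ± 0.53. Gpnmb, with a premature stop in D2, was at 7.13 to 18.6 CPM in D2 and 22.8 to 38.1 CPM in B6. Ide was lower by 0.95 ± 0.18, but the lowest B6 library, at 51.5 CPM, lay below the D2 libraries of 52.0 to 64.9 CPM. Hc, the complement C5 gene truncated in D2, and Glo1 did not pass (-0.72 and 0.41).

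The strain difference was also seen at the GV stage for many genes. In GV oocytes 3891 genes were called between the strains (20.5%), and 2832 were called in the same direction at both stages, 56.4% of the MII calls and 72.8% of the GV calls, with 3 in opposite directions. The stages share no library. Summed granulosa and cumulus markers ran from 377 to 4364 CPM in B6 and from 431 to 4329 CPM in D2 GV pools. In MII libraries they ran from 352 to 477 CPM in B6 and from 471 to 587 CPM in D2. Whether follicle-cell RNA contributed to the GV level of single genes was not tested. Arid5b differed by -6.11 and Pnpla3 by 7.52 in GV oocytes, and neither passed the test of a change with stage (adjusted p = 0.446 and 0.46). A test of the change of the strain difference from GV to MII called 20 genes (0.105%), 9 with a larger and 11 with a smaller D2 minus B6 value in MII, while 1820 genes (9.58%) had an unadjusted p under 0.05. On simulated data the same test also called some genes whose difference did not change. Of the 2184 MII calls that were not called in GV, 7 passed this test, so for the others a difference between stages was not shown.

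Pxdn gained a wider gap in MII. In B6 it was at 4.38 ± 2.88 CPM in GV oocytes (SD, n = 5) and 0.588 ± 0.312 CPM in MII eggs (SD, n = 6), and in D2 at 138 ± 29.2 and 176 ± 23.0 CPM (SD, n = 5 each), a change of 3.29 ± 0.43 in the log2 difference (SE, adjusted p = 0.00021). Pknox2 (3.07 ± 0.47) and Stc1 (4.87 ± 0.94) changed in the same direction, but with limma-voom neither passed (adjusted p = 0.128 and 0.133). Their B6 GV levels were low and uneven, at 1.86 ± 2.27 and 1.66 ± 2.23 CPM (SD, n = 5 each). Mtx3, a gene of mitochondrial protein import, had GV means of 8.91 ± 4.77 CPM in B6 and 9.66 ± 3.5 CPM in D2 (SD, n = 5 each), and in MII at 0.973 to 2.40 CPM in B6 and 9.72 to 13.5 CPM in D2. At GV, Nlrp2 was at 453 ± 74.6 CPM in B6 (SD, n = 5) and 415 ± 72.5 CPM in D2 (SD, n = 5), and its strain difference changed with stage (0.85 ± 0.16, adjusted p = 0.0142).

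In the other direction, Tex15, a gene of meiotic recombination and transposon silencing in germ cells, was at 147 to 198 CPM in B6 MII eggs and at 7.00, 4.22 and 4.84 CPM in batch 1 and 4.82 and 2.61 CPM in batch 2 of D2. No libraries overlapped. In GV oocytes D2 held 20.8 ± 12.1 CPM and B6 197 ± 34.6 CPM (SD, n = 5 each), and the difference changed by -1.97 ± 0.36 with stage. Myo7a, an unconventional myosin gene, went from 1.82 ± 1.36 CPM in D2 GV oocytes (SD, n = 5) to at most 0.0950 CPM in D2 MII eggs, with B6 MII eggs at 5.42 to 11.5 CPM (-4.91 ± 0.78). Elmo1, an activator of Rac, changed by -2.78 ± 0.45 and Iffo2 by -1.74 ± 0.37. With limma-voom the changes of Tex15, Myo7a and Iffo2 did not pass (adjusted p = 0.12, 0.127 and 0.177), and that of Iffo2 was also lost when any of 7 libraries was left out (adjusted p = 0.0521 to 0.101).

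**Figure D5:**
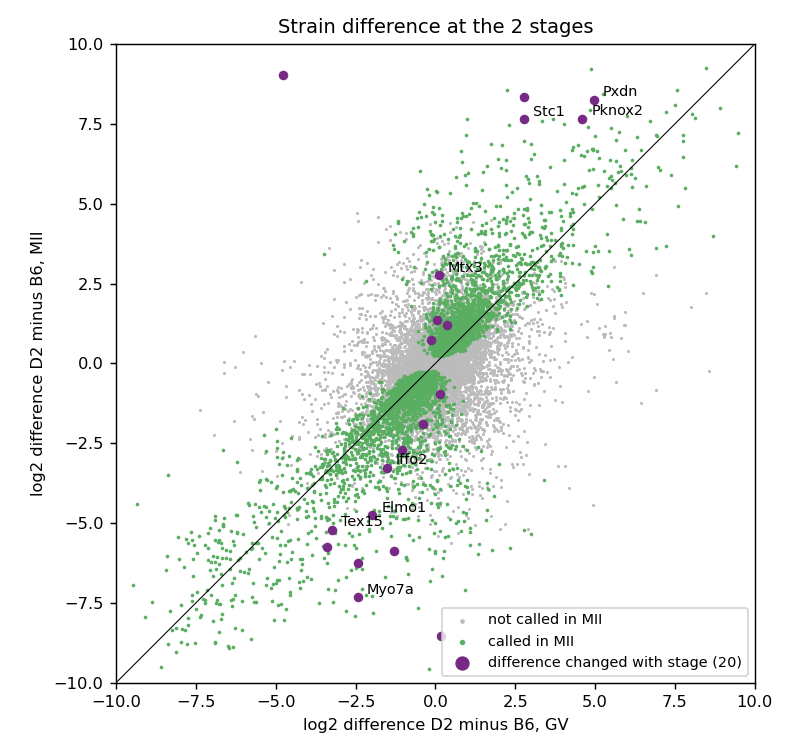
Log2 difference D2 minus B6 in MII eggs (vertical) against that in GV oocytes (horizontal) for all genes tested, green where called in MII and purple for the 20 genes whose difference changed with stage. Points on the diagonal have equal differences. Stc1, Pknox2, Pxdn and Mtx3 lie above it and Myo7a, Elmo1, Tex15 and Iffo2 below.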

How the data were processed

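RNA of pooled oocytes was amplified by SPIA and read as single 50 nt ends, with 12 PCR cycles, per the labels' protocols. Per the submitters' processing notes, HISAT2, SAMtools, featureCounts of Subread 1.5.1, DESeq2 1.16.1 and the build GRCm38.p4 were used. Strand and multi-mapping settings are not given in the sources used here, so genes and their antisense partners cannot be told apart. The deposited values are read counts per gene, not normalised. Of 37444 entries, 3 that named no gene (at most 0.0190% of a library) were left out, and 36371 of the 37441 kept had a RefSeq name. Entries without one held 0.2123% of counts.

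Low counts were removed by filterByExpr over the 6 groups, with TMM scaling. One robust quasi-likelihood model in edgeR 4.0.16 with the 6 groups and batch was fitted to the 32 libraries, and two-sided tests of D2 minus B6 in MII, in GV, and of the change between stages were adjusted by Benjamini-Hochberg over 19003 genes (threshold 0.05). SE is the log2 difference divided by the square root of F. Mean ± SD values are CPM. Depth was 27.3 to 35.9 M counts per MII library. Intervals were not built from reads, which carry no molecular identifiers.

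Named genes included the 10 largest differences in each direction and the 5 in each direction with the lowest adjusted p at 100 CPM or more. The 4 largest stage differences in each direction and up to 5 called members per list were also named. All of these had a mean of 5 CPM or more, without predicted genes and pseudogenes. All but the stage genes were required to have the same direction within each batch. All known variant genes tested and the genes of the 5 longest runs were added without these filters. Not every gene named by this rule is reported here. Of the 26 lists, 1102 of 1156 members were tested. The members and lists were chosen with earlier results of these data known. Alternatives were median-of-ratios scaling, other filters, DESeq2 1.42.0, limma-voom (limma 3.58.1), the compared groups alone, other batch terms, each batch alone, a replicate block, the granulosa level as a covariate and each library left out. The fit was tested on simulated data, where a few unchanged genes were called both between the strains and in the test of a change with stage. Words of 50 bases were compared between GENCODE M21 transcripts, and 223 of 240 genes matched. Of these, 98 shared at least 10% of their words with another gene. Among them were Hspa8 (39.4%), Psmd9 (24.9%) and Ccnb1 (23.4%), whose counts are less certain for that reason. R 4.3.3 and Python 3.11.15 were used, with pandas 2.3.3, numpy 2.4.6 and matplotlib 3.10.9.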

Additional observations from a re-analysis of the deposited data

Results flagged for a closer look

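Of 92 groups of values checked for a library standing apart from the rest of its group, 9 held one, and chance gives about 1 in 20. In D2 MII eggs, Arhgef15 was highest in replicate 4 of batch 1 at 31.6 CPM. Replicate 2 of batch 2 was highest for Klf12 at 24.3 CPM, for Stc1 at 49.5 CPM and for Ahr at 120.2 CPM, and replicate 1 of batch 2 was highest for Nnt at 6.89 CPM. In B6 MII eggs, Myo7a was lowest in replicate 1 of batch 1 at 5.42 CPM, Alad was highest in replicate 1 of batch 2 at 2.27 CPM, and Hc was highest in replicate 2 of batch 2 at 11.0 CPM. The mean granulosa marker level was highest in replicate 1 of batch 2 of B6 at 0.74 on the log2 scale.

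The D2 minus B6 difference changed between GV and MII by a test of the change itself for 20 genes, and 10 of them are named here. It was larger in MII by 3.29 for Pxdn, 3.07 for Pknox2, 4.87 for Stc1, 2.65 for Mtx3 and 0.85 for Nlrp2 on the log2 scale, and changed by -4.91 for Myo7a, -2.78 for Elmo1, -1.97 for Tex15, -1.74 for Iffo2 and -1.53 for Rps2. The first 4 and Myo7a, Elmo1, Tex15 and Iffo2 were recomputed under the other settings, and none of these 8 passed within batch 2 alone. Pxdn and Elmo1 lost the call in that setting only. Mtx3, Myo7a and Pknox2 lost it in 3 settings each, Tex15 in 4, Stc1 in 6 and Iffo2 in 13, and none reversed. Leaving out a library ended the Stc1 call once, without B6 replicate 3 of batch 1 (4.65, adjusted p = 0.0521). It ended the Iffo2 call without D2 replicate 4 or B6 replicate 3 of batch 1, without D2 replicates 1 or 2 of batch 2, and without B6 replicates 1, 2 or 3 of batch 2.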

How the results depend on the processing

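The 2552 genes higher and 2467 lower in D2 became 1590 higher and 1849 lower within batch 1 alone and 1059 higher and 1101 lower within batch 2 alone, where fewer libraries enter. Leaving out each library gave 2317 to 2554 higher, 2100 to 2339 lower and 14 to 26 stage calls. The 20 stage calls became 100 with DESeq2, 12 with limma-voom, 13 without a batch term, 0 within batch 2 alone, 7 with a replicate block and 47 with the granulosa level as a covariate, and the cause was not tested. With under 1 CPM as the lower bound, 23 genes were on in D2 and 37 on in B6. The replicate block gave 2155 higher and 2090 lower. Same-numbered B6 and D2 libraries correlated at 0.022 and -0.064 in batch 1 and 0.085 and 0.067 in batch 2. These are deviations from means of very few libraries, so they cannot show whether the numbers pair them. Of 222 called named genes, 159 kept their call in all 23 settings, 63 lost it in at least 1, most within batch 2 alone (49), and 0 reversed. Hc passed without D2 replicate 4 of batch 1 (-0.998, adjusted p = 0.0327) and Ahr with a batch term of 3 levels, batch 2 divided by title prefix (0.39, adjusted p = 0.0191).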
